A study of Papio anubis with 18 samples.

Results

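The induced pluripotent stem cell (iPSC) line M14939#3 of the olive baboon, Papio anubis, was compared with the embryonic stem cell (ESC) lines B4 and B15. The comparison used the 3 libraries of M14939#3 and the 6 of the ESC lines, 9 of the 12 RNA-seq libraries of the series, chosen by the line named in the label of each library. The 3 libraries of the other iPSC line, 160-2, were read beside them. All 4 lines were derived before this study and kept on a feeder layer in culture medium meant for human ES and iPS cells, with no treatment and no genetic change named in the labels. The labels do not say how many clones a line comes from, or whether the libraries of a line came from separate cultures. The library labels also carry an undefined number that follows a p (16, 17 and 40 in replicates 1, 2 and 3 of M14939#3, 16, 18 and 25 in B4, 21, 28 and 43 in B15, and 25, 65 and 84 in 160-2). Its part in the spread between the libraries of a line was not tested. With no more said of the replicates, p-values measure the spread between libraries, which may be technical.

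ESC lines are taken from the early embryo, and iPSC lines are made from body cells in which a few transcription factors have restored the pluripotent state. Both can self-renew and give rise to the cell types of the body. Lines of either kind can also differ in genes that were reset incompletely, silenced in culture or inherited from the donor animal, so an iPSC line is read against more than 1 ESC line.

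The count table gives genes by Ensembl identifier only, and no identifier could be paired with a symbol in the reference table used here. What each gene does is therefore not stated, and markers of pluripotency, of other cell types and of feeder cells were not analysed here. Total counts were 23006622, 24517942 and 22685551 in replicates 1, 2 and 3 of M14939#3, and 12049925 to 62634176 in the 6 ESC libraries. Replicate 2 of B15 stood apart in its scaling factor (0.779, against 0.949 to 1.08 in the other 11 libraries). Libraries came in 2 sets, run on 1 lane or on 2 lanes. Of M14939#3, 2 libraries were run on 1 lane and 1 on 2 lanes, and of the ESC lines, 2 were run on 1 lane and 4 on 2 lanes. The set was a term in the fit. In B4, B15 and 160-2 the 1-lane libraries are those with the highest numbers after the p. In these lines the set and that number cannot be told apart. In M14939#3 the 1-lane libraries carry the lowest and the highest number.

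Expression in M14939#3 stood apart from both ESC lines in 90 genes, 41 higher and 49 lower, out of 17106 tested (0.526%; 0.24% higher and 0.286% lower). A gene counted here when edgeR's quasi-likelihood test gave a Benjamini-Hochberg adjusted p under 0.05 against B4 and again against B15, with the same sign. Of the 90, 86 were at least 2-fold from both lines, 40 at least 4-fold, 23 at least 8-fold and 14 at least 16-fold. The median difference from the mean of the ESC lines, in which both lines weigh equally, was 2.08 on the log2 scale for the higher genes and -2.21 for the lower genes. Over all genes tested, the median was 0.00079 and the median absolute difference 0.279. In 89 of the 90 genes, all 3 M14939#3 libraries lay beyond all 6 ESC libraries in CPM (the count of a gene scaled to the total of its library), as they did in 6.76% of all genes. The exception was ENSPANG00000024444, singled out after its values were seen, where the highest M14939#3 library had 34.1 CPM and the lowest ESC library 33.7 CPM. The 90 genes were chosen by tests on these same libraries, so the separation describes them and is not independent evidence.

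**Figure D1:**
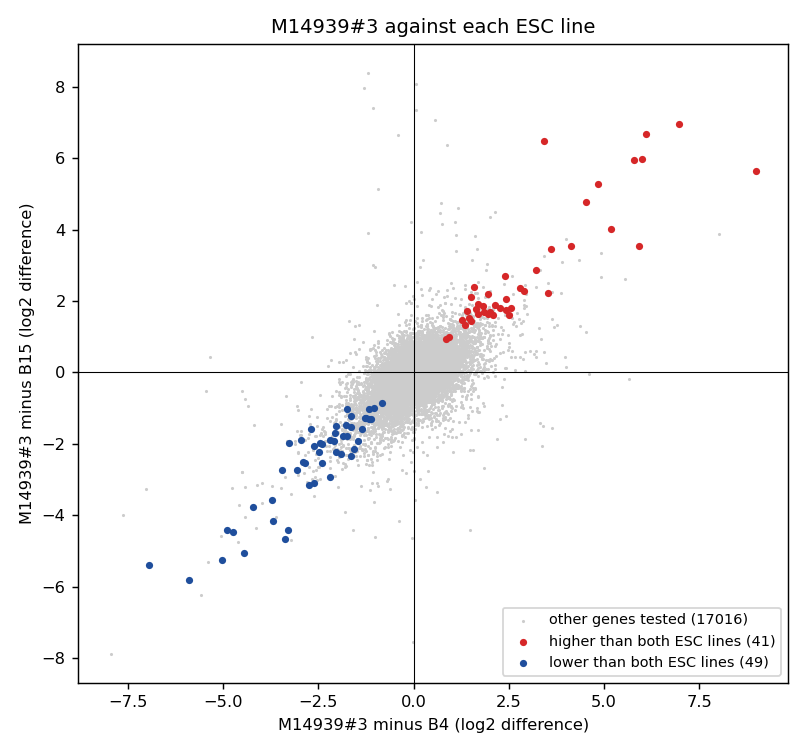
Log2 difference of M14939#3 from B4 (x axis) and from B15 (y axis) for each gene tested. Red points are the 41 genes called higher than both ESC lines, blue points the 49 called lower, and grey points all others, which include genes far from only 1 of the ESC lines.

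Against single ESC lines the numbers were larger. M14939#3 differed from B4 in 293 genes (1.71% of those tested), 136 higher and 157 lower, and from B15 in 175 (1.02%), 86 higher and 89 lower. Against the mean of the ESC lines it differed in 305 (1.78%), 156 higher and 149 lower. Of these 305 genes, 90 were called against both lines, 128 against B4 but not B15, 43 against B15 but not B4, and 44 against neither line alone. A call against only 1 line does not show that the ESC lines differ. Only 1 gene was called above one ESC line and below the other, ENSPANG00000015002, singled out for that reason. It had 14.9 to 29.6 CPM in M14939#3, 3.32 to 5.71 CPM in B4 and 66.5 to 135 CPM in B15.

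The number of genes depended on single libraries. Against both lines it was 53 without replicate 3 of B15, 35 without replicate 3 of B4, 56 without replicate 1 of M14939#3 and 40 without replicate 2 of M14939#3. Of the 90 genes, 19 (9 higher, 10 lower) were called against both lines in each of the 12 fits that left out a library. Within the libraries run on 1 lane 46 genes were called, and within those run on 2 lanes, where M14939#3 has a single library, 1 was called. The median difference of the 41 higher genes was 2.18 in the first set and 2.09 in the second, and that of the 49 lower genes was -2.16 and -2.17. The 90 genes were chosen with both sets in the fit, so nothing is read from the closeness of these medians. Without replicate 2 of B15, 87 genes were called. Against the mean of the ESC lines the 305 became 141 without replicate 3 of B4, and 158 and 101 without replicates 1 and 2 of M14939#3. Against B4 the 293 became 463 without replicate 1 of B15, 153, 192 and 54 without replicates 1, 2 and 3 of B4, and 147 and 114 without replicates 1 and 2 of M14939#3. Against B15 the 175 became 93 without replicate 3 of B15, and 110 and 64 without replicates 1 and 2 of M14939#3.

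**Figure D2:**
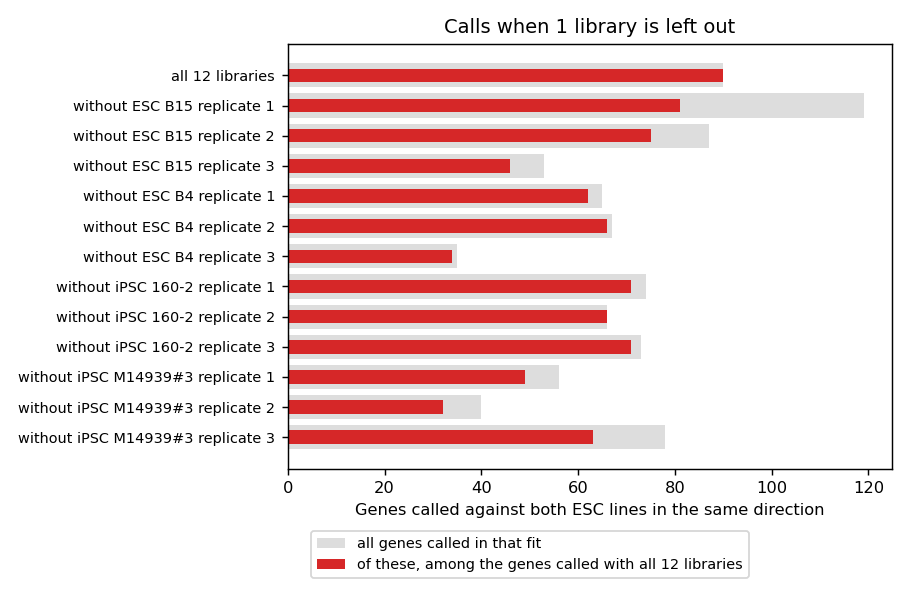
Number of genes called against both ESC lines in the same direction (x axis) with all 12 libraries and with each library left out (y axis). Grey bars give all genes called in that fit and red bars those among the 90; the grey bar is shortest without replicate 3 of B4 (35) and longest without replicate 1 of B15 (119).

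The 90 genes spread over a wide range of expression. In the group where it was higher, M14939#3 or the mean of the ESC lines, the gene was at 100 CPM or more in 15 cases. It was at 10 to 100 CPM in 32, at 1 to 10 CPM in 40 and under 1 CPM in 3. In 23 genes the contrast was close to on or off, with a mean under 0.5 CPM in the lower line or lines and at least 1 CPM in the higher. Of these, 10 were expressed in M14939#3 and near silent in both ESC lines, and 13 were the reverse. ENSPANG00000031426, 1 of the 10, had 0 counts in the 3 B4 libraries, 4 in the B15 libraries and 158 in M14939#3, so that it was at least 53.7-fold higher than in B4 (floor of 3 counts over the B4 libraries). The most abundant gene in each direction that was not shared with 160-2, chosen after the values were seen, shows the other end of the range. ENSPANG00000005858 had 1051, 749 and 1457 CPM in replicates 1, 2 and 3 of M14939#3 and 75.9 to 436 CPM in the ESC libraries. ENSPANG00000014328 had 295, 285 and 341 CPM in M14939#3 and 480 to 632 CPM in the ESC libraries, a difference under 2-fold from B15. In both genes the M14939#3 and ESC libraries did not overlap.

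The spread among the 3 libraries of M14939#3 was read beside that over all genes. The median range of log2 CPM over the 3 libraries was 0.675 for the 90 genes and 0.716 for all genes tested. The tests that chose the 90 genes favour a small spread within lines, so nothing is read from this closeness. The M14939#3 library nearest to the ESC mean was replicate 1 in 28 genes, replicate 2 in 35 and replicate 3 in 27. None of the 90 genes differed between B15 and B4 in the edgeR test at an adjusted p under 0.05 (63 of all genes tested did, 0.368%), with 14 at an unadjusted p under 0.05 (9.2% of all genes). DESeq2 called 4 of the 90 between the ESC lines, and 1.4% of all genes.

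**Figure D3:**
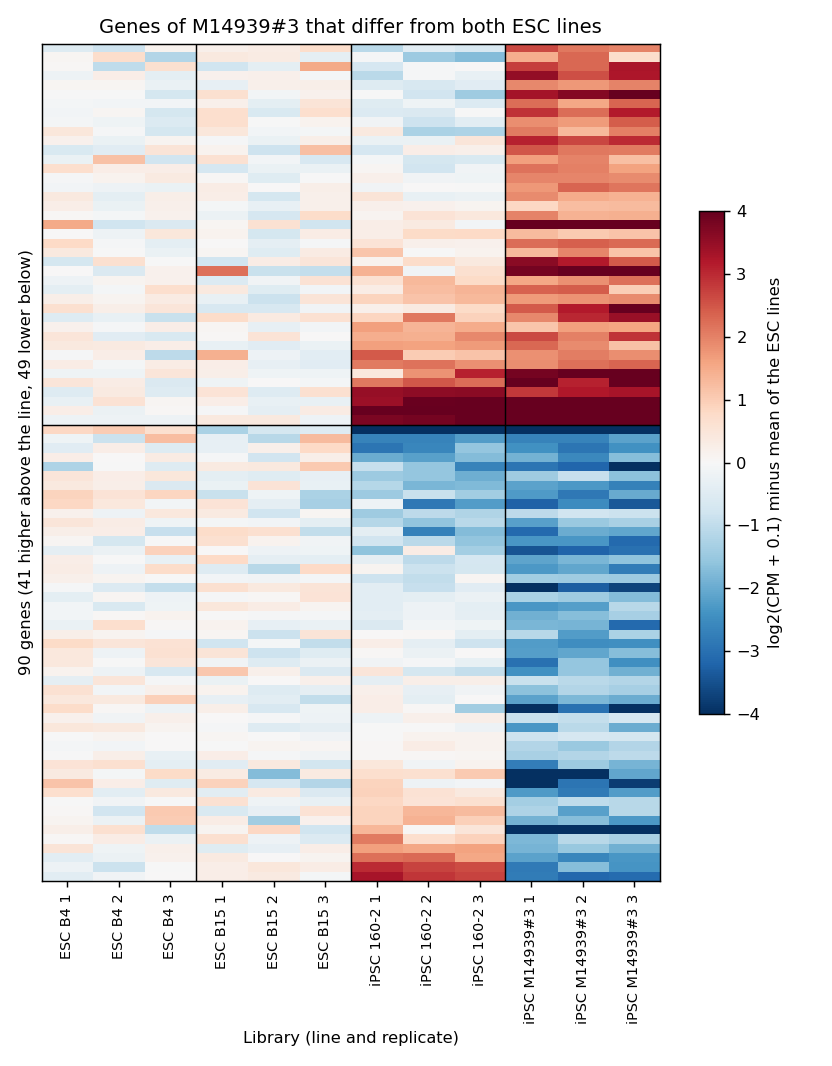
Log2(CPM + 0.1) minus the mean of the ESC lines for the 90 genes (rows, those higher in M14939#3 above the line, sorted by the difference of 160-2 from the ESC lines) in the 12 libraries (columns), with colours ending at 4 in either direction. The 3 M14939#3 columns are red in the upper block and blue in the lower, while most rows of 160-2 are pale and the last rows of the lower block are red there.

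How far 160-2 shared these differences was read from the same fit. The 160-2 and M14939#3 comparisons use the same 6 ESC libraries, so a chance deviation of those libraries enters both. Line 160-2 itself differed from both ESC lines in the same direction in 95 genes (0.555%), 46 higher and 49 lower. Of the 90 genes of M14939#3, 13 were among them with the same direction (7 higher, 6 lower). This is 14.4% of the M14939#3 genes (Wilson interval of 95%, 8.64% to 23.2%, as a counting interval) and 13.7% of those of 160-2. Another 4 were called for 160-2 in the opposite direction, 10 were called against 1 ESC line only and 63 against neither. Of the 10, all but ENSPANG00000014280 and ENSPANG00000030759 had the direction of M14939#3. The count of 13 became 6 without replicate 3 of B15 or of B4, 7 and 8 without replicates 1 and 2 of 160-2, and 8 without replicate 1 or 2 of M14939#3.

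By the median over the 90 genes, 160-2 lay nearer to the ESC lines than to M14939#3. The median difference of 160-2 from the mean of the ESC lines was 0.40 for the 41 higher genes and -0.16 for the 49 lower genes. Set on a scale from the ESC mean (0%) to M14939#3 (100%), 160-2 lay at a median of 13.9% in the higher and 7.60% in the lower genes. It was below 25% of the way in 55 genes and at 75% or more in 14. Of the 55, 34 lay beyond the ESC mean on the other side, among them the 4 called in the opposite direction, so not all of them were near the ESC level. In 25 genes all 3 libraries of 160-2 fell inside the range of the 6 ESC libraries. In 22 all 3 lay beyond it on the side of M14939#3, and in 6 on the other side. Over all genes tested, all 3 lay beyond it on one side or the other in 8.84%. The 2 iPSC lines differed directly in 64 of the 90 genes (8.84% of all genes tested). In each of the 64, M14939#3 lay above 160-2 where it was higher than the ESC lines and below 160-2 where it was lower. This comparison reuses the M14939#3 libraries by which the genes were chosen, so the 64 describe the genes and are not independent evidence. The 64 became 40 without replicate 3 of B15, 27 without replicate 3 of B4, and 39 and 30 without replicates 1 and 2 of M14939#3. In 13 of the genes that 160-2 did not share, the iPSC lines were not called different either, and 160-2 had the sign of M14939#3 in all 13. For these, with 3 libraries per line, neither sharing by the rule of both ESC lines nor a difference between the iPSC lines was called. Some of them were called for 160-2 against 1 ESC line with that sign. An example is ENSPANG00000035728, with an edgeR adjusted p of 0.0213 against B15 and 0.0677 against B4.

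**Figure D4:**
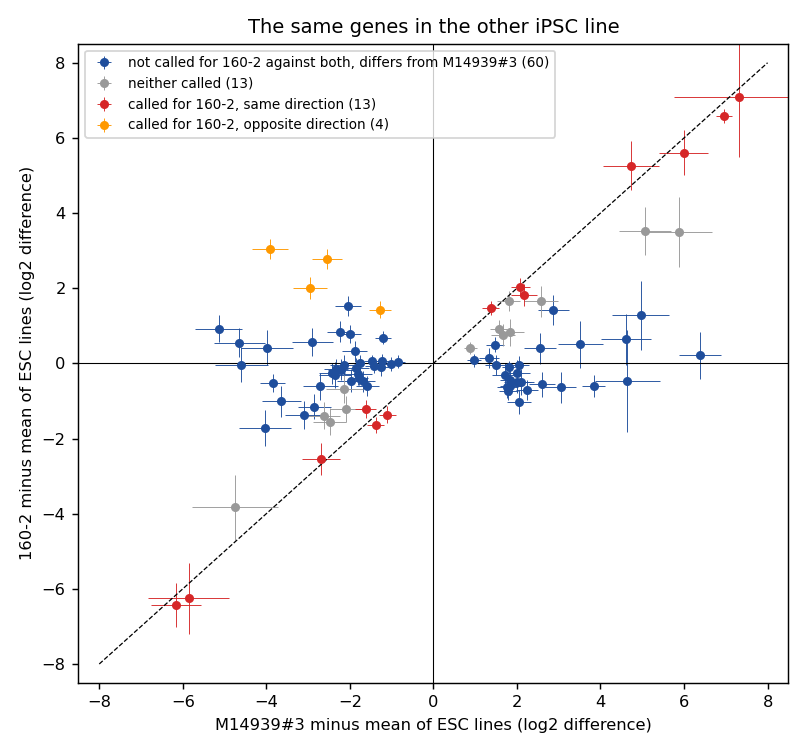
Log2 difference from the mean of the ESC lines of M14939#3 (x axis) and 160-2 (y axis) for the 90 genes, with bars of 1 SE. The 13 red points lie along the dashed line of equal difference, the 60 blue points mostly near 0 on the y axis, and the 4 orange points at the upper left.

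The 13 shared genes were compared between the iPSC lines directly. The difference between M14939#3 and 160-2 was at most 0.53 on the log2 scale in these genes, and 0 of the 13 was called between the lines by edgeR (8.84% of all genes were), at an unadjusted p under 0.05 by edgeR (26.8%) or by DESeq2 (14.9%). The 13 were chosen for calls in the same direction in both iPSC lines, so nothing is read from these counts. The 7 shared higher genes had a median difference from the ESC mean of 4.72 in M14939#3 and 5.26 in 160-2, and the 6 shared lower genes of -2.16 and -2.09.

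ENSPANG00000035342 was the first of the higher shared genes. It had 774, 493 and 632 CPM in replicates 1, 2 and 3 of M14939#3 and 385, 556 and 455 CPM in 160-2. The ESC libraries had 5.14, 3.57 and 4.40 CPM in B4 and 4.10, 3.25 and 5.35 CPM in B15. Every iPSC library thus lay far above every ESC library. M14939#3 exceeded B4 by 6.96 on the log2 scale (SE 0.26, edgeR adjusted p = 7.75e-10) and B15 by 6.95 (SE 0.26, edgeR adjusted p = 7.16e-10). It was the single gene called within the libraries run on 2 lanes.

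ENSPANG00000032997 was the second, at a low level. It had 2.09, 2.00 and 2.56 CPM in M14939#3 and 1.21, 1.80 and 1.91 CPM in 160-2, with no M14939#3 library within the range of 160-2. The ESC libraries had at most 0.083 CPM, with 5 counts in all 6, against 155 in the 3 of M14939#3. M14939#3 exceeded the mean of the ESC lines by 5.99 on the log2 scale (SE 0.59, edgeR adjusted p = 7.72e-05), and the larger adjusted p against a single line was 8.86e-04. With so few ESC counts the size of the difference depended on 1 library, and it was 7.40 without replicate 1 of B15. It was 7.54 within the libraries run on 1 lane and 7.01 with only the lane that all libraries share.

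Among the shared genes lower in M14939#3, ENSPANG00000014666 ranked first but did not pass the naming rule for single genes. ENSPANG00000006115 led those that passed it. Its CPM were 23.8, 27.5 and 21.1 in B4 and 5.51, 8.30 and 9.38 in B15, against 0.35, 0.20 and 0.088 in M14939#3 and 0.077, 0.049 and 0.43 in 160-2. Both iPSC lines held a small part of the level of either ESC line, and their ranges overlapped. M14939#3 fell by 6.94 on the log2 scale against B4 (SE 0.63, edgeR adjusted p = 5.08e-05) and by 5.39 against B15 (SE 0.61, edgeR adjusted p = 3.25e-04).

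ENSPANG00000019057 was the next of the lower shared genes. It had 1.48, 1.24 and 1.55 CPM in B4, 1.18, 0.68 and 1.45 CPM in B15, 0.26, 0.12 and 0.31 CPM in M14939#3 and 0.23, 0.19 and 0.30 CPM in 160-2. The iPSC ranges lay below all ESC libraries, with 16 counts in the 3 libraries of M14939#3. M14939#3 fell by 2.85 against B4 (SE 0.50, edgeR adjusted p = 0.00778) and by 2.53 against B15 (SE 0.49, edgeR adjusted p = 0.0198). The call against B15 was lost without replicate 3 of B15 (adjusted p = 0.12) and without replicate 1 (0.0674) or 2 (0.18) of M14939#3. The call against B4 was lost without replicate 3 of B4 (0.0599) or replicate 2 of M14939#3 (0.0642), all by edgeR. In the fit blocked on replicate number, the edgeR adjusted p against B15 was 0.0564.

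**Figure D5:**
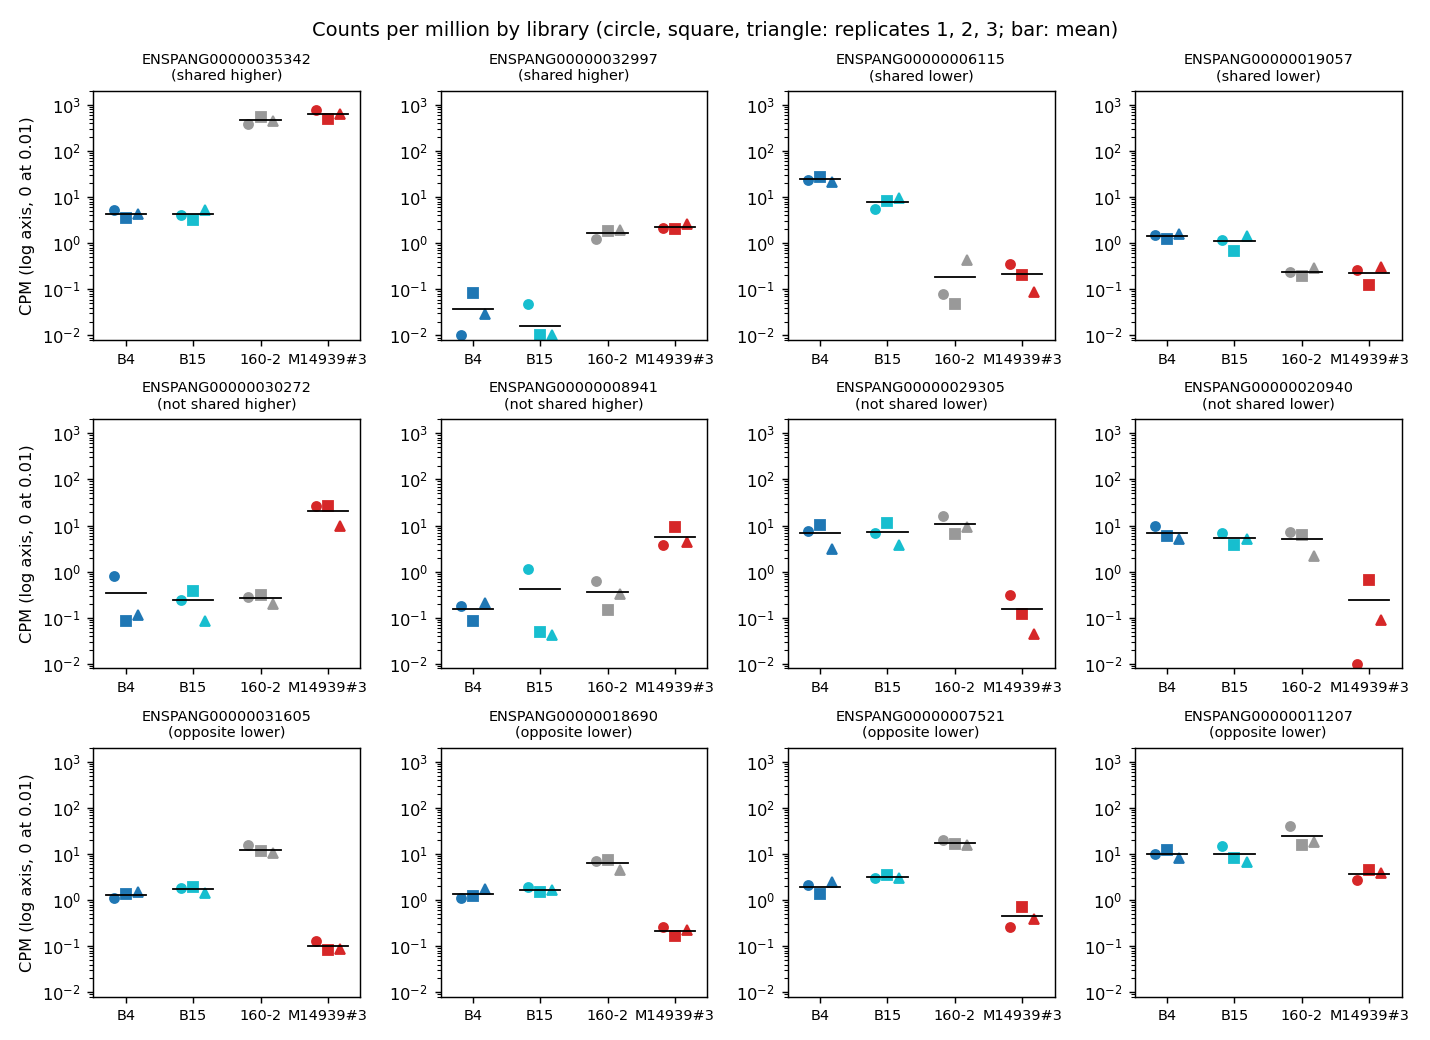
CPM on a log axis (0 drawn at 0.01) in each library of the 4 lines for the 12 genes named by the rule for single genes, with symbols for replicates and a bar for the mean. The upper row holds genes shared with 160-2, the middle row genes in which 160-2 lies with the ESC lines, and the lower row the 4 genes in which 160-2 lies above the ESC lines and M14939#3 below them.

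The genes described next were not called for 160-2 against either ESC line. ENSPANG00000030272 had 26.6, 25.9 and 9.79 CPM in M14939#3. Its level was 0.81, 0.083 and 0.12 CPM in B4, 0.24, 0.39 and 0.083 CPM in B15, and 0.28, 0.32 and 0.20 CPM in 160-2. The 160-2 libraries lay inside the ESC range, and the lowest M14939#3 library, replicate 3, was still far above them. M14939#3 exceeded B4 by 6.10 (SE 0.65, edgeR adjusted p = 3.01e-04), B15 by 6.67 (SE 0.67, edgeR adjusted p = 1.23e-04) and 160-2 by 6.18 (SE 0.63, edgeR adjusted p = 7.54e-05).

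ENSPANG00000008941 showed the same order at a lower level, with 3.78, 9.05 and 4.41 CPM in M14939#3. It had 0.18, 0.083 and 0.21 CPM in B4, 1.17, 0.049 and 0.041 CPM in B15 and 0.62, 0.15 and 0.33 CPM in 160-2. Replicate 1 of B15 stood above the other ESC libraries but below M14939#3. The difference was 5.18 from B4 (SE 0.81, edgeR adjusted p = 0.00392) and 4.03 from B15 (SE 0.74, edgeR adjusted p = 0.0144). The difference from the ESC mean was 4.61, and it became 5.89 without replicate 1 of B15 and 5.24 without replicate 3 of B4. The call against B15 was lost without replicate 3 of B15 (edgeR adjusted p = 0.0659) or replicate 2 of M14939#3 (0.152), without the library set as a term (0.0956) and without the 160-2 libraries in the fit (0.0552).

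ENSPANG00000029305 was expressed in all lines but M14939#3. It had 7.64, 10.1 and 3.16 CPM in B4, 6.91, 11.4 and 3.69 CPM in B15 and 16.5, 6.70 and 9.08 CPM in 160-2, against 0.30, 0.12 and 0.044 CPM in M14939#3. In both ESC lines replicate 3, run on 1 lane and with the highest number after the p, was the lowest. M14939#3 fell by 5.03 against B4 (SE 0.59, edgeR adjusted p = 6.51e-04), by 5.26 against B15 (SE 0.59, edgeR adjusted p = 2.45e-04) and by 6.07 against 160-2 (SE 0.57, edgeR adjusted p = 3.13e-05). Fitted on the 1-lane libraries alone, its difference from the ESC mean was -4.31, against -6.33 on the 2-lane libraries alone, where the edgeR adjusted p was 0.188. It was -6.31 without replicate 1 of M14939#3 and -4.43 without replicate 2.

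ENSPANG00000020940 had 9.76, 6.06 and 5.10 CPM in B4, 6.90, 3.74 and 5.23 CPM in B15 and 7.12, 6.11 and 2.17 CPM in 160-2. In M14939#3 it had 0 CPM in replicate 1, 0.65 in replicate 2 and 0.088 in replicate 3, from 18 counts in all. The 3 M14939#3 libraries varied widely and all lay below the other 9. The difference was -4.74 from B4 (SE 0.67, edgeR adjusted p = 0.00197) and -4.46 from B15 (SE 0.67, edgeR adjusted p = 0.00407). The difference from the ESC mean was -4.60 with all libraries and -6.73 without replicate 2 of M14939#3. Within the libraries run on 1 lane it was -6.79, and within those run on 2 lanes -3.42.

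In 4 genes the iPSC lines stood on opposite sides of the ESC lines, each with M14939#3 lower and 160-2 higher. ENSPANG00000031605 had 0.13, 0.082 and 0.088 CPM in M14939#3 and 15.5, 11.5 and 10.3 CPM in 160-2. The ESC libraries lay between them, at 1.09, 1.33 and 1.49 CPM in B4 and 1.80, 1.94 and 1.41 CPM in B15. M14939#3 differed by -3.68 from B4 (SE 0.46, edgeR adjusted p = 8.52e-04) and by -4.15 from B15 (SE 0.46, edgeR adjusted p = 2.38e-04). For 160-2 the differences were 3.27 (SE 0.34) and 2.80 (SE 0.34), with edgeR adjusted p of 1.17e-04 and 5.62e-04.

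ENSPANG00000018690 had 0.26, 0.16 and 0.22 CPM in M14939#3, 1.09 to 1.96 CPM in the ESC libraries and 7.22, 7.52 and 4.54 CPM in 160-2. ENSPANG00000007521 had 0.26, 0.69 and 0.40 CPM in M14939#3, 1.33 to 3.44 CPM in the ESC libraries and 20.2, 16.5 and 15.6 CPM in 160-2. In both genes the 3 groups did not overlap. M14939#3 fell by 2.95 (SE 0.41, edgeR adjusted p = 0.00117) and by 2.55 (SE 0.36, edgeR adjusted p = 0.00117) against the ESC mean. Without replicate 3 of B4 the calls against B4 were lost, with edgeR adjusted p of 0.076 and 0.13.

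ENSPANG00000011207, the last of the 4, had 2.74, 4.45 and 3.88 CPM in M14939#3, 6.60 to 15.2 CPM in the ESC libraries and 40.8, 15.5 and 18.6 CPM in 160-2. The groups did not overlap, but the gap to the ESC libraries was small. It sat at the threshold, with a difference of -1.29 from B15 (SE 0.29, edgeR adjusted p = 0.0497). The call against both lines held in 1 of the 12 fits that left out a library, the one without replicate 3 of M14939#3. The larger of its adjusted p-values in the other 11 ran from 0.0536 without replicate 1 of 160-2 to 0.405 without replicate 2 of M14939#3, by edgeR. In the blocked fit it was 0.105. Just inside the threshold with it was ENSPANG00000024444, and just outside were ENSPANG00000008366 (differences of -0.85 from B4 and -0.88 from B15, larger adjusted p 0.0516 by edgeR) and ENSPANG00000034295 (1.36 and 1.77, larger adjusted p 0.0517).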

How the data were processed

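Per the labels' protocols, the 12 libraries were prepared with SMART-Seq v4 (full-length cDNA from little RNA) and Nextera XT. The authors deposited raw read counts per gene for 29475 Ensembl identifiers in 18 columns, each a library on a lane. The submitters' processing notes name featureCounts and edgeR, without role or version. The sources used here do not name the aligner, the genome build or the annotation. Strand is not recorded by these kits, so antisense neighbours can exchange reads. Near-identical gene copies can also exchange reads, whether or not strand is recorded.

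Lanes of a library were summed (chi-square per degree of freedom, 1 for counting noise, of 1.23 to 2.27 for 6 lane pairs and at least 30 for pairs of libraries within lines). edgeR 4.0.16 in R 4.3.3 was fitted to all 12 libraries with TMM, filterByExpr and a robust quasi-likelihood fit, with line and library set as terms (17106 genes, 7 residual degrees of freedom), and p-values were adjusted over all genes tested. Log2 differences are edgeR's shrunken values, and each SE is the absolute difference before shrinkage over the root of its F statistic. Total counts per library of 12049925 to 62634176 set the precision, and PCR copies were not removed by molecular identifiers. The Wilson interval covers counting error only. It treats genes as separate draws, although the lists of both iPSC lines share the 6 ESC libraries. Alternatives included DESeq2 1.42.0, other filters and scaling, and each library left out. The code was tested on simulated counts.

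Single genes were named by rule: called against both ESC lines, no overlap with ESC libraries, at least 1 CPM in the higher group, and ranked by the smaller of the 2 differences. The first 2 per direction were taken among genes shared with 160-2 and among genes called for 160-2 against neither ESC line and called between the iPSC lines, with any called in the opposite direction. Lists fixed by symbol were not tested, since 0 identifiers matched the reference table. Members, lists and rules were chosen with earlier results of these data known.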

Additional observations from a re-analysis of the deposited data

Results flagged for a closer look

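For 8 of the 12 genes named by rule, the edgeR test of the difference between the iPSC lines was past an adjusted p of 0.05, so that the effect relative to the ESC lines differed between the 2 iPSC lines. The log2 difference M14939#3 minus 160-2 was 6.18 for ENSPANG00000030272 and 3.97 for ENSPANG00000008941. It was -6.07 for ENSPANG00000029305 and -4.57 for ENSPANG00000020940. In the genes with opposite directions it was -6.95 for ENSPANG00000031605, -4.96 for ENSPANG00000018690, -5.34 for ENSPANG00000007521 and -2.72 for ENSPANG00000011207. These 8 genes were chosen in part for that difference, by the naming rule or by the opposite calls.

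Among the 6 ESC libraries, ENSPANG00000008941 had 1.17 CPM in replicate 1 of B15, far from the other 5 for the range of the group. The other 5 had 0.041 to 0.21 CPM. How often chance gives a gap of this size was not tested. The gap was picked out among 12 genes, at low CPM, and the 6 libraries come from both ESC lines.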

How the results depend on the processing

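Depth and 3 libraries per line limit these results: 86 of the 90 genes were at least 2-fold from both lines, and 4 were closer to a line. With at least 1 CPM in 3 libraries, 86 passed the filter. For M14939#3 against the ESC mean, B4, B15 and both lines, DESeq2 called 627, 670, 426 and 229 genes, no filter on low counts gave 766, 742, 561 and 295, and the 9 libraries without 160-2 gave 151, 134, 84 and 45. By DESeq2 and without a filter, 160-2 shared 35 and 66 genes, and 159 and 210 differed from 160-2. Of the 90, DESeq2 called 89, the unfiltered fit 90 and the fit of 9 libraries 44. Within libraries run on 1 lane, 76 genes were called against B15, 46 against both lines and 33 of these differed from 160-2. Either set has lines with a lone library, assumed to vary like the others. Within libraries run on 2 lanes the 4 counts were 1, 2, 1 and 1, the single gene was shared by 160-2 (100%), and 0 genes of the list differed from 160-2 by edgeR (0 at an unadjusted p under 0.05). Leaving out a library moved the 305 from 101 to 426, the 293 from 54 to 463, the 175 from 64 to 254, the 90 from 35 to 119, the 13 from 6 to 15, the 14.4% from 9.46% to 20% and the 64 from 27 to 89; which genes are tested and the shared spread change with it. For the other changes the cause was not tested. With the replicate number as a replicate block, 160-2 shared 8 genes and 74 were called against both lines. The main fit did not take the numbers as pairs. In deviations from line means, 11 of 18 same-numbered pairs correlated over 0.1 (range -0.223 to 0.441). All 3 pairs of B4 with B15 did (0.259 to 0.441), and there the block gave 51 genes for 63. These 3 pairs match in library set as well as in number. Of the 18, pairs within a set were all positive (0.027 to 0.441). Pairs from different sets were all negative (-0.223 to -0.075). Of 12 libraries, 8 correlated best with their own number. Line means do not adjust for the set, so nothing on pairing by number is read from these values. Of the 12 named genes, ENSPANG00000035342 was called against both lines in all 23 alternatives, and the other 11 lost that call within libraries run on 2 lanes. ENSPANG00000011207 lost it in 17 alternatives, ENSPANG00000019057 in 7, ENSPANG00000008941 in 5, and ENSPANG00000018690 and ENSPANG00000007521 in 3 each. Against the ESC mean, ENSPANG00000011207 and ENSPANG00000019057 lost the call in 7 and 3, and the other 9 only within 2 lanes.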
